A study of Mus musculus with 12 samples.

Results

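The genes Ppara, Ppard and Pparg encode the 3 peroxisome proliferator-activated receptors (PPARs), and the acetylated histone mark H3K27ac around them was described in 6 individual newborn mouse hearts. All regions called in the gene body and up to 10 kb on each side of each gene were taken, with gene positions from RefSeq (GRCm38.p6, the same build as mm10). The loci are 3 of 21887 protein-coding loci, and they held 20, 15 and 29 of the 47971, 48274 and 67706 called regions in edKO hearts 1, 3 and 6, against 27, 32 and 34 of the 57976, 62882 and 66325 called regions in WT hearts 1, 3 and 4. The edKO hearts (n = 3, numbered 1, 3 and 6) came from newborns whose cardiomyocytes lack RXR alpha and RXR beta (RXRab-/-, a cardiomyocyte-specific deletion), and the WT hearts (n = 3, numbered 1, 3 and 4) from wild-type newborns. Both genotypes were sampled at P0 (postnatal day 0), and each heart counts as its own biological replicate. The sources used here name neither the strain nor the promoter that drives the deletion.

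Chromatin came from total heart, fixed with DSG and formaldehyde, so every other cell type of an edKO heart keeps both genes. A loss of mark per cell and a loss of marked cells cannot be told apart in such tissue. A region was called within 1 kb of a gene end for 9 of 9 cardiomyocyte markers, 7 of 7 fibroblast markers and 6 of 6 endothelial markers in each heart. The same held for 1 to 3 of 7 macrophage markers, 3 of 6 adipocyte markers and 1 to 2 of 5 erythroid markers. It also held for 1 to 2 of 5 hepatocyte markers, which a heart should lack. Summed over the 7 macrophage loci, called regions covered 4027 to 4798 bp in edKO hearts and 5036 to 5741 bp in WT hearts. The sums of the other marker lists overlapped between the groups, and the macrophage difference was not tested. The locus of the deleted gene Rxra kept 8682 to 18432 bp of called regions in edKO hearts, against 11157 to 18868 bp in WT hearts, and a histone mark in total heart does not check the deletion. The lists covered 47.9 to 66.6 Mb in edKO hearts and 59.1 to 68.3 Mb in WT hearts, with the least in edKO 3. The median region width ran from 550 to 1011 bp in edKO hearts and from 533 to 766 bp in WT hearts, with the widest in edKO 1. Read depth per heart is unknown, so a heart without a region in its list may still carry the mark there below the calling threshold.

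PPARs are nuclear receptors that bind DNA as heterodimers with RXRs and respond to fatty acids and their derivatives. Ppara is known for driving fatty acid oxidation genes in heart and liver, Ppard is broadly expressed and acts on overlapping genes in muscle and heart, and Pparg is the main regulator of adipocyte formation. An isoform of Pparg used by adipocytes is read from an internal promoter. The comparison asks whether the marked chromatin at these partner genes differs when cardiomyocytes lack RXR.

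The annotated starts are shown because some lay in a called region in each heart and others in none. RefSeq lists 1 start for Ppara, 1 for Ppard and 3 for Pparg, all on the plus strand, without naming the isoform of each. Each sequence below runs 5′ to 3′ from 250 bases before the start to 50 bases after it (RefSeq, GRCm38.p6). Capitals mark the GC box GGGCGG and the nuclear receptor core motif AGGTCA, on either strand.
Ppara start, chr15:85735526-85735825: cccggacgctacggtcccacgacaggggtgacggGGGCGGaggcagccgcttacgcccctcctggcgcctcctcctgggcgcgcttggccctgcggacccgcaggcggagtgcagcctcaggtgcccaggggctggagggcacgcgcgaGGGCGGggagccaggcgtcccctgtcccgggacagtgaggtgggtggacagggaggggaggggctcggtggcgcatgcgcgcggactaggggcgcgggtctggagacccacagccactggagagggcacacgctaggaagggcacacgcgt
Ppard start, chr17:28232504-28232803: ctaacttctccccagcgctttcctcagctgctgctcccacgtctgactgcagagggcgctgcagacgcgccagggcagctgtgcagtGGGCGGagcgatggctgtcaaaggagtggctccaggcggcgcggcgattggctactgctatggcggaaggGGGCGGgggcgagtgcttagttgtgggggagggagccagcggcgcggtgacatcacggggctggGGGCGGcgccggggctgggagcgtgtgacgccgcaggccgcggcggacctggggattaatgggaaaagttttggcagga
Pparg, the first start, chr6:115360894-115361193: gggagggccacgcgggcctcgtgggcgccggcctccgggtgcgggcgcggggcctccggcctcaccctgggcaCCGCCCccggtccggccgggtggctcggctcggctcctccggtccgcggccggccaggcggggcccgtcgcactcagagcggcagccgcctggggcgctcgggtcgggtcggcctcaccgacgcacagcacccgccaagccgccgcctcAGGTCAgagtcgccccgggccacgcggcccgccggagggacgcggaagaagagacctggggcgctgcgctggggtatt
Pparg, the second start, chr6:115362099-115362398: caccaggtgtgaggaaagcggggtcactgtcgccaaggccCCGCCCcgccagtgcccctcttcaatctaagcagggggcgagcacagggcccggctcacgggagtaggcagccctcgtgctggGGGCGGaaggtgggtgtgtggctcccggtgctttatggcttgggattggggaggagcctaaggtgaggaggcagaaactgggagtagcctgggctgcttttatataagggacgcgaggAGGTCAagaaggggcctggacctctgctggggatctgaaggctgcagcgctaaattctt
Pparg, the third start, chr6:115421816-115422115: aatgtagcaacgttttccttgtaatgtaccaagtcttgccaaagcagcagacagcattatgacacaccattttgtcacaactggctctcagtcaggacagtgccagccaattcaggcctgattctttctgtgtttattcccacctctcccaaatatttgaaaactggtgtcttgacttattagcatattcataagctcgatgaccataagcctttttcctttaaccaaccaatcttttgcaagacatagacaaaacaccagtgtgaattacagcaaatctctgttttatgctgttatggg

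The Ppara start, the Ppard start and the first Pparg start lay in a called region in all 6 hearts. The second Pparg start, 1470 bp inside the gene body, lay in a called region in 0 of 6 hearts, with the nearest region 57 to 273 bp away. The third Pparg start, 61187 bp inside the gene body, also lay in a called region in 0 of 6 hearts, and its nearest region was 10022 to 11401 bp away. Called regions still reached into the printed window of the second start, with 194, 175 and 95 of its 300 bases in edKO hearts 1, 3 and 6, against 94, 129 and 0 bases in WT hearts 1, 3 and 4. The window of the third start had 0 bases covered in each heart. The windows held 30 CpG dinucleotides at Ppara, 27 at Ppard, 44 at the first Pparg start, 13 at the second and 2 at the third. The median over 32817 RefSeq promoter windows of the same length was 7. Their GC content was 74.7% at Ppara, 68.3% at Ppard, and 80.3%, 62.7% and 40.3% at the first, the second and the third Pparg start, against a median of 52.7%.

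A GC box was present at 4 of the 5 starts and missing from the third Pparg window, while 35.6% of all promoter windows hold one. The core motif AGGTCA occurred in 2 of the 5 windows, at bases -28 to -23 of the first Pparg start and at -9 to -4 of the second, counted with -1 as the base before the start. Of all promoter windows, 16.3% hold that motif. A direct repeat of 2 such motifs with 1 base between them (AGGTCANAGGTCA) is the arrangement known for PPAR and RXR pairs. Searched as exact letters on both strands, it was in none of the 5 windows and in 0.0396% of all windows. Looser forms of the repeat were not counted. CCAAT, the letters of the CCAAT box, occurred once at Ppard, once at the second Pparg start and in 2 places at the third, and in 37.4% of all windows. The exact letters TATAAA, a form of the TATA box, occurred at the second Pparg start alone of the 5, on the minus strand, and in 13.6% of all windows. Other forms of the TATA box were not searched on either strand. The E box CACGTG, present in 7.15% of all windows, was in none of the 5.

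How far the region reached upstream of the start differed among the genes. At Ppara the called region began 2101 to 2721 bp before the start and ended 1336 to 1661 bp after it, so that the printed window was covered whole in 6 of 6 hearts. At Pparg the region began 453 to 540 bp before the first start and ended 932 to 1148 bp after it, again covering the whole window in 6 of 6 hearts. At Ppard the region began 573 bp before the start in edKO 1, 37 bp in edKO 3 and 118 bp in edKO 6, against 99, 86 and 92 bp in WT 1, 3 and 4. The Ppard window was covered whole in 1 heart, edKO 1, and for 87 to 168 of its 300 bases in the others. The list of edKO 1 has the widest regions of the 6 by median width.

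Ppara, on chromosome 15 from 85734910 to 85806851, carried the most marked chromatin of the 3 genes. Called regions covered 15848, 8980 and 16109 bp of its locus in edKO hearts 1, 3 and 6, against 14127, 14471 and 17739 bp in WT hearts 1, 3 and 4. The groups overlapped, with edKO 3 lowest of all and the other edKO hearts between the lowest and the highest WT heart. The mean was 13646 ± 4043 bp in edKO hearts and 15446 ± 1994 bp in WT hearts (SD, n = 3 each).

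The Ppara locus has 2 blocks besides its own start that were marked in all 6 hearts at high rank. The upstream block, centred 10.6 kb before the gene body, overlaps the long noncoding gene Gm46529 (chromosome 15, 85723850 to 85727546). It spanned 4197, 2199 and 3926 bp in edKO hearts 1, 3 and 6, against 3971, 3741 and 3709 bp in WT hearts 1, 3 and 4. These lengths are of the whole block, from 85722065 to 85726579. Only its part within 10 kb of the gene body counts in the Ppara value. Flank regions on both sides together gave 6055, 4205 and 6484 bp of that value in edKO hearts, against 5113, 5797 and 6471 bp in WT hearts. The block at the far end, 75.5 kb from the start of the gene body, spanned 4426, 3067 and 4303 bp in edKO hearts, against 3648, 4094 and 4505 bp in WT hearts. It includes the start of Cdpf1, a neighbouring gene on the minus strand, whose start was called in 6 of 6 hearts. A part of the Ppara value therefore belongs to its neighbours, and the windows of Cdpf1 and Pkdrej overlap that of Ppara.

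Inside Ppara, away from the ends by over 1 kb, called regions covered 6938, 2482 and 7199 bp in edKO hearts 1, 3 and 6, against 6563, 6153 and 8697 bp in WT hearts 1, 3 and 4. The low edKO value was again edKO 3, the heart with the least covered genome, and the groups overlapped. Both inner regions called in all 6 hearts lay 20.7 kb and 64.2 kb from the start of the gene body. The 20.7 kb region covered 2323, 918 and 2319 bp in edKO hearts and 1962, 1540 and 1999 bp in WT hearts. The 64.2 kb region covered 1173, 295 and 866 bp in edKO hearts and 629, 967 and 1524 bp in WT hearts.

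Ppard, on chromosome 17 from 28232754 to 28301469, had less covered length on average in edKO hearts than in WT hearts, with overlapping groups, and did not pass the test. Called regions covered 4776, 3091 and 6064 bp of its locus in edKO hearts 1, 3 and 6, against 5608, 6973 and 6097 bp in WT hearts 1, 3 and 4. The edKO hearts 1 and 3 were below every WT heart, and edKO 6 lay between WT 1 and WT 4. The mean was 4644 ± 1491 bp in edKO hearts and 6226 ± 692 bp in WT hearts (SD, n = 3 each).

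The inner part of Ppard varied more than its ends. Called regions away from the ends covered 2781, 1757 and 4089 bp in edKO hearts 1, 3 and 6, against 3978, 4849 and 4365 bp in WT hearts 1, 3 and 4, and edKO 6 again lay among the WT hearts. There were 2, 1 and 6 such regions in edKO hearts and 6, 8 and 9 in WT hearts. The main inner region, 24.2 kb from the start, was called in all 6 hearts and covered 2211, 1757 and 1995 bp in edKO hearts, against 2156, 2088 and 2133 bp in WT hearts. The next widest inner region, 19.4 kb from the start, covered 570, 0 and 888 bp in edKO hearts and 764, 1008 and 408 bp in WT hearts. The remaining inner regions were 226 to 712 bp wide and each was called in 1 to 3 hearts. A region 8.9 kb upstream of Ppard was called in all 6 hearts, with 505 to 618 bp in edKO hearts and 576 to 676 bp in WT hearts. It lies within the gene body of Def6, whose window overlaps that of Ppard, as does the window of Fance on the far side.

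Pparg, on chromosome 6 from 115360879 to 115490404, is the longest of the 3 genes and had the least marked length for its size. Called regions covered 6103, 2600 and 2514 bp of its locus in edKO hearts 1, 3 and 6, against 4251, 3277 and 2149 bp in WT hearts 1, 3 and 4. The groups overlapped fully, with edKO 1 highest and WT 4 lowest. The mean was 3739 ± 2048 bp in edKO hearts and 3226 ± 1052 bp in WT hearts (SD, n = 3 each). No other protein-coding window overlaps that of Pparg, and 0 regions were called in its flanks in any heart.

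Inside Pparg, called regions covered 4843, 1412 and 1314 bp in edKO hearts 1, 3 and 6, against 3002, 2002 and 961 bp in WT hearts 1, 3 and 4. Only the region 72.1 kb from the start of the gene body was called in all 6 hearts, with 1833, 360 and 364 bp in edKO hearts and 828, 337 and 500 bp in WT hearts. It lies downstream of the third annotated start, which itself was not in a called region. The markers of adipocytes, the cells in which Pparg is best known, had 14313 to 19997 bp of called regions summed over their 6 loci in edKO hearts and 17614 to 20962 bp in WT hearts, with Lep at 0 bp in all hearts. Fabp4 alone gave 6120 to 10188 bp of this sum in edKO hearts and 7395 to 9656 bp in WT hearts. Every marker but Lep is also on the list of PPAR targets below, so the sum does not measure adipocytes alone. The part of adipocytes in the Pparg values was not tested.

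**Figure D1:**
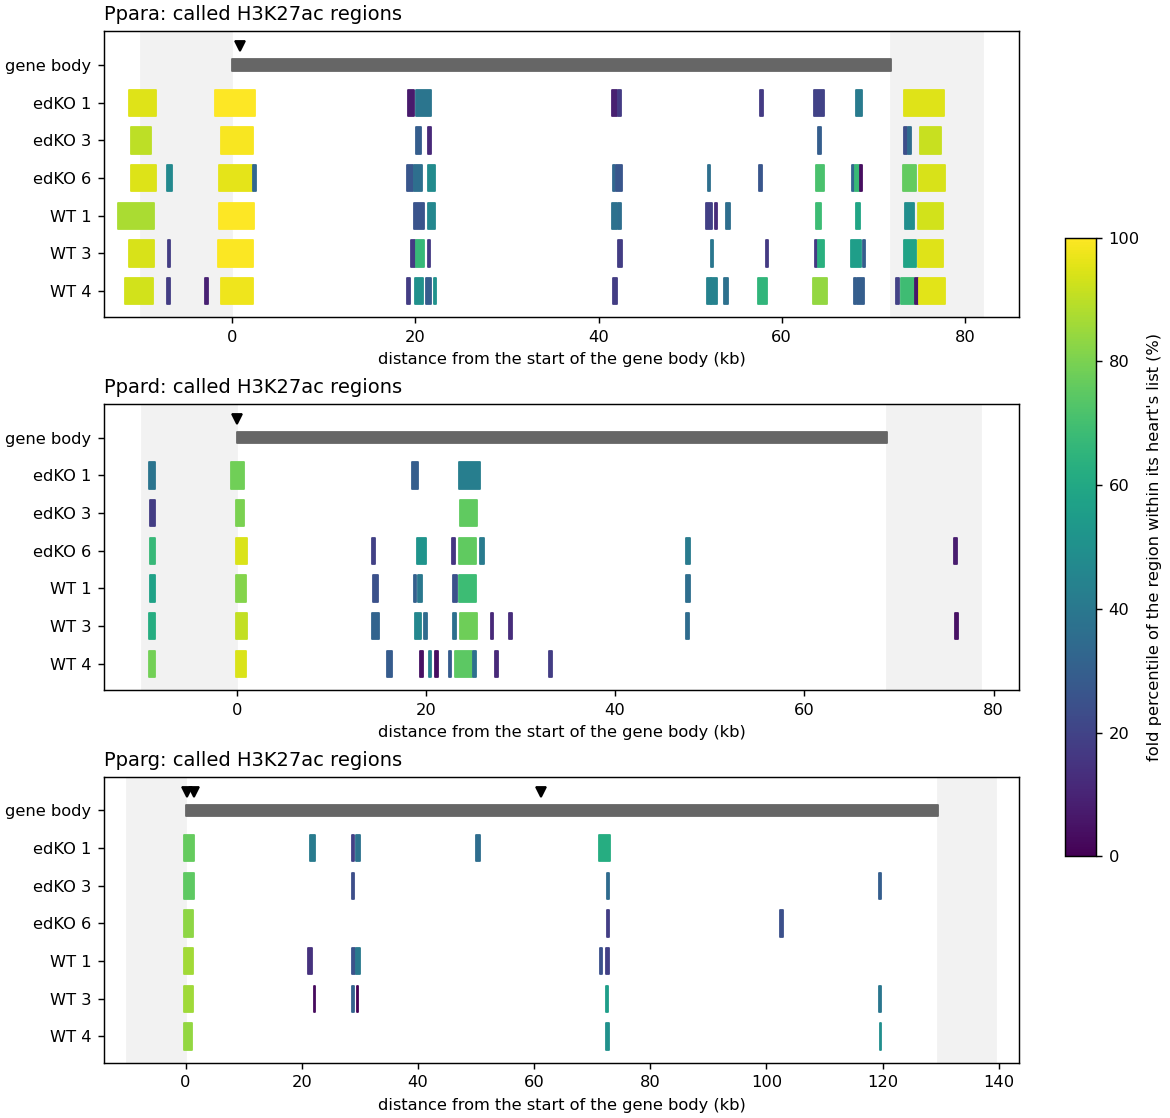
Called H3K27ac regions at Ppara, Ppard and Pparg in the 3 edKO hearts (upper rows) and the 3 WT hearts (lower rows), by distance from the start of the gene body in kb. Colour gives the fold percentile of a region within its own heart's list, triangles mark annotated starts, the grey bar is the gene body and grey shading the 10 kb flanks. The start regions are present in all 6 hearts, and the third Pparg triangle has no region under it.

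The merged lists held 37 distinct regions at the 3 loci, 13 at Ppara, 16 at Ppard and 8 at Pparg. Of these, 10 were called in all 6 hearts (27%, against 35.8% of 79289 regions over the genome) and 13 in a single heart (35.1%, against 32.2% over the genome). At Ppard 9 of 16 regions were called in a single heart, against 2 of 13 at Ppara and 2 of 8 at Pparg. Regions shared by the 3 edKO hearts and missing from every WT list numbered 0 of 37, and made up 0.0719% over the genome. Regions shared by the 3 WT hearts and missing from every edKO list also numbered 0 of 37, and made up 1.08% over the genome. Single regions were not tested, since the smallest exact p for 3 hearts against 3 is 0.1.

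The number of called regions was 10, 8 and 17 at Ppara in edKO hearts 1, 3 and 6, against 13, 15 and 20 in WT hearts 1, 3 and 4 (exact permutation p = 0.3, two-sided). At Ppard it was 4, 3 and 9 in edKO hearts, against 8, 11 and 11 in WT hearts (exact permutation p = 0.2, two-sided). At Pparg it was 6, 4 and 3 in edKO hearts, against 6, 6 and 3 in WT hearts (exact permutation p = 1.0, two-sided). The groups overlapped at all 3 genes. The lowest counts at Ppara and Ppard were those of edKO 1 and 3, whose lists are the shortest, and the part of list length in them was not tested. With every list cut to the length of the shortest, edKO minus WT was -1.0 regions at Ppara, -1.67 at Ppard and 0.667 at Pparg, against -4.33, -4.67 and -0.667 with the lists as deposited, so the Pparg sign turned.

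Covered length was compared between the genotypes on the log2(bp + 200) scale, centred per heart, with limma over all protein-coding loci covered by 500 bp or more on average. Differences on this scale are smaller than the true ones at loci with little covered length. Of 14317 loci tested, 0.105% passed an adjusted p of 0.05 with less covered length in edKO hearts and 0% with more. None of the 3 PPAR loci was among them. The locus difference, edKO minus WT, was -0.13 for Ppara (SE 0.18, limma adjusted p = 0.904, 95% interval -0.55 to 0.29). It was -0.37 for Ppard (SE 0.17, unadjusted p = 0.0606 and limma adjusted p = 0.765, 95% interval -0.75 to 0.02). It was 0.22 for Pparg (SE 0.31, limma adjusted p = 0.907, 95% interval -0.50 to 0.94). These intervals are wide, and the tests do not show that the loci were alike.

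Single hearts set the sign at 2 of the 3 loci. Without edKO 3 the Ppara difference was 0.02, and without WT 4 it was also 0.02. Without edKO 1 the Pparg difference was -0.10, and with a 20 kb flank in place of 10 kb it was -0.22. The Ppard difference stayed below 0 in all 17 alternatives, between -0.54 and -0.14, and was -0.16 with lists of equal length and -0.14 with stricter lists (−log10 q of at least 5). After centring, the covered lengths of all 3 edKO hearts were below those of all 3 WT hearts at 5.78% of tested loci and above them at 7.12%. The PPAR loci were in neither class.

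At the gene ends no locus of 11285 passed in limma, 0% lower and 0% higher in edKO hearts, with 293 lower and 149 higher at an unadjusted p under 0.05. Called regions within 1 kb of the Ppara ends covered 2000, 2000 and 2000 bp in edKO hearts, against 2000, 2000 and 2336 bp in WT hearts. The 2000 bp around the Ppara start were thus covered whole in every heart, and the measure could not have shown a wider region. At Ppard the gene-end length was 1377, 815 and 1118 bp in edKO hearts and 1054, 1086 and 1092 bp in WT hearts. At Pparg it was 1260, 1188 and 1200 bp in edKO hearts and 1249, 1275 and 1188 bp in WT hearts. The differences were -0.05 for Ppara (SE 0.10), 0.03 for Ppard (SE 0.12) and 0.00 for Pparg (SE 0.08), each with a limma adjusted p of 1.0.

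For the inner part of the gene, 0.0725% of 6898 loci passed with less covered length in edKO hearts and 0% with more, and the PPAR genes were not among them. The inner difference was -0.34 for Ppara (SE 0.31, limma adjusted p = 0.911, 95% interval -1.07 to 0.39). That value was -0.0138 without edKO 3, -0.13 without WT 4 and -0.82 with stricter lists (limma adjusted p = 0.714). For Ppard the inner difference was -0.51 (SE 0.22, unadjusted p = 0.0514 and limma adjusted p = 0.742, 95% interval -1.03 to 0.00). For Pparg it was 0.33 (SE 0.47, limma adjusted p = 0.924, 95% interval -0.77 to 1.44) and turned to -0.13 without edKO 1. The inner Ppard value was -0.21 with lists of equal length and -0.0269 with stricter lists (limma adjusted p = 0.981). Without centring, the median of all inner loci was -0.10 and not 0.03, a shift of -0.14. On that scale Ppard was at -0.65, Ppara at -0.48 and Pparg at 0.20.

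**Figure D2:**
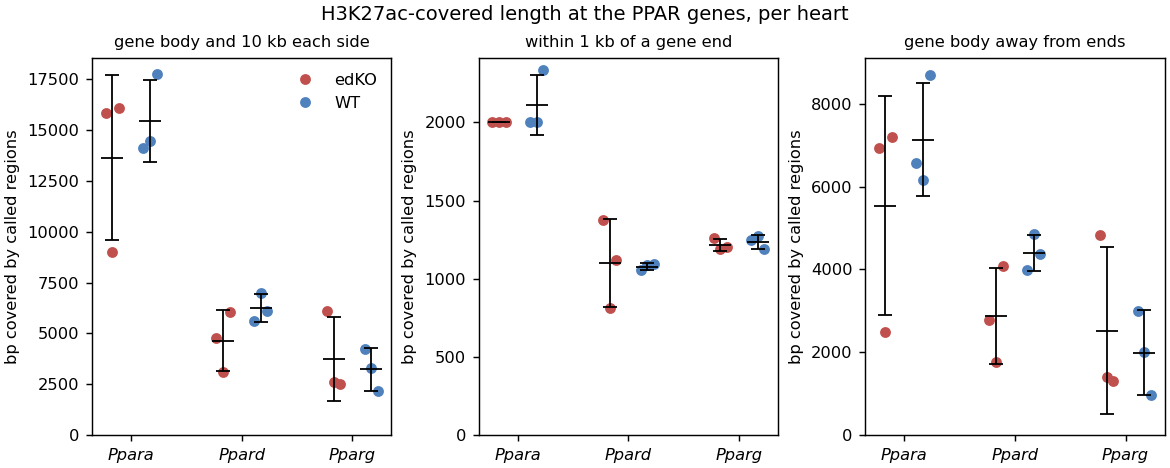
Base pairs covered by called regions at each PPAR gene, for the gene body with 10 kb on each side, for 1 kb on each side of the gene ends, and for the gene body away from its ends. Each point is a heart, edKO to the left of WT, with the mean and SD of 3 hearts. The groups overlap in every panel. In the panels for the whole locus and the inner gene body, edKO 3 is lowest at Ppara and Ppard and edKO 1 is highest at Pparg.

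Relative to the length of the window, the order of the genes was the same in each of the 6 hearts. Called regions covered 17.2%, 9.77% and 17.5% of the Ppara window in edKO hearts 1, 3 and 6, against 15.4%, 15.7% and 19.3% in WT hearts 1, 3 and 4. The Ppard window was covered to 5.38%, 3.48% and 6.84% in edKO hearts and to 6.32%, 7.86% and 6.87% in WT hearts. The Pparg window was covered to 4.08%, 1.74% and 1.68% in edKO hearts and to 2.84%, 2.19% and 1.44% in WT hearts. With flanks counted, the ranges of Ppara lay clear of those of Ppard and Pparg. The lowest Ppard value (edKO 3) was below the highest Pparg value (edKO 1). By this share the Ppara locus exceeded 75.4% to 89.4% of all tested loci, the Ppard locus 35.4% to 56.0% and the Pparg locus 8.86% to 30.0%, over the 6 hearts. The Ppara share includes 4205 to 6484 bp of flank regions per heart, a part of which belongs to its neighbours. In edKO 3, Ppara had 3562 bp of gene-end regions and 1213 bp of inner regions. Ppard had 1212 and 4723 bp of these in WT 3, so without flank regions the ranges of Ppara and Ppard overlap.

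The strength of the start regions was described by the authors' own fold enrichment, used only as a rank within each heart's list, where the 100th percentile is the region of highest fold. Ranks from lists of unequal length do not show a change between hearts. The Ppara start region stood at percentiles 99.6, 98.9 and 96.1 in edKO hearts 1, 3 and 6, against 99.8, 99.2 and 97.5 in WT hearts 1, 3 and 4. The Ppard start region stood at 78.5, 79.9 and 94.3 in edKO hearts and at 81.6, 90.8 and 94.2 in WT hearts. The Pparg start region stood at 76.5, 75.0 and 83.2 in edKO hearts and at 85.9, 85.9 and 83.8 in WT hearts.

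For Ppara and Ppard the groups overlapped, and the mean difference was -0.657 points (exact permutation p = 0.6, two-sided) and -4.63 points (exact permutation p = 0.6, two-sided). For Pparg all 3 edKO hearts were below all 3 WT hearts, edKO 6 by less than 1 point, with a mean difference of -6.96 points (exact permutation p = 0.1, two-sided, the smallest that 3 hearts against 3 can give). Ranked by −log10 q in place of fold, the mean difference was -4.87 points (exact permutation p = 0.3, two-sided). The same separation was found at 6.66% of 11383 genes with a gene-end region in all hearts. The median gene-end percentile over all genes was also lower in edKO hearts 1 and 3, at 86.0 and 86.2, and was 90.4 in edKO 6, against 87.8, 89.3 and 90.1 in WT hearts 1, 3 and 4. The Ppara start was above this median in each heart, and the Pparg start was below it in each heart.

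The best region at the gene end ranked above the best inner region in each gene and heart. The best inner Ppara region stood at percentiles 41.0, 29.4 and 71.2 in edKO hearts 1, 3 and 6, against 68.6, 67.2 and 83.7 in WT hearts 1, 3 and 4. The gap from gene end to inner region was therefore 58.6, 69.5 and 24.9 points at Ppara in edKO hearts and 31.1, 32.1 and 13.8 points in WT hearts, with overlapping groups (exact permutation p = 0.3, two-sided). At Ppard the gap was 36.2, 4.39 and 18.6 points in edKO hearts and 12.9, 12.8 and 19.4 points in WT hearts (exact permutation p = 0.8, two-sided). At Pparg it was 14.6, 40.4 and 58.7 points in edKO hearts and 45.7, 30.3 and 33.6 points in WT hearts (exact permutation p = 1.0, two-sided). The median gap over all genes with both kinds of region was 18.2 to 20.8 points in the 6 hearts, so a start region of higher rank was the usual pattern. The median percentile of inner Ppard regions was 36.0, 75.5 and 41.1 in edKO hearts and 33.0, 35.1 and 28.7 in WT hearts. These groups did not overlap (exact permutation p = 0.1, two-sided). The medians rest on 2, 1 and 6 inner regions in edKO hearts, against 6, 8 and 9 in WT hearts.

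**Figure D3:**
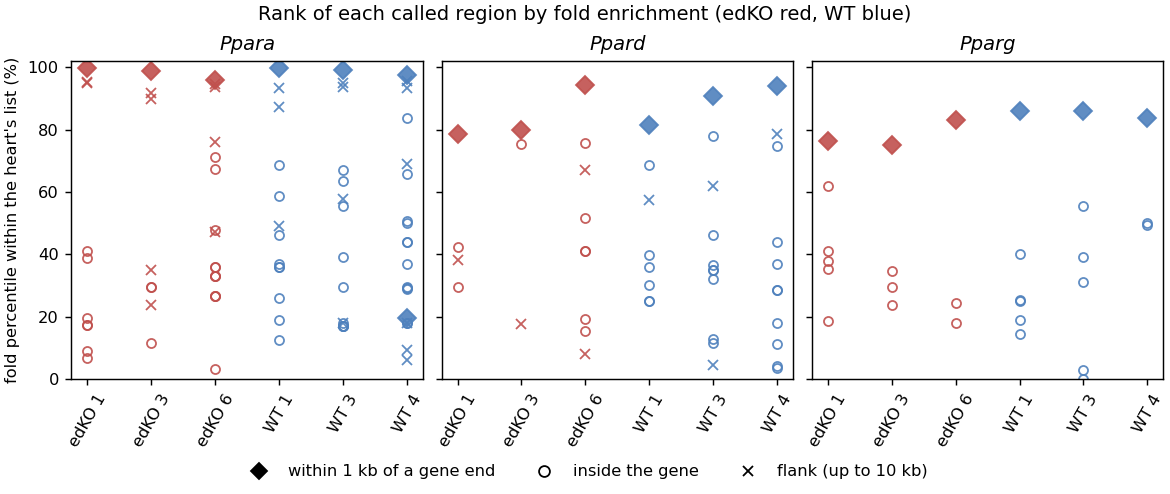
Fold percentile of every called region at the PPAR genes within its own heart's list, with edKO hearts to the left of WT hearts. Diamonds are regions within 1 kb of a gene end, open circles regions inside the gene and crosses regions in the flanks. The Ppara start region lies at 96.1 or above in each heart, and the low diamond in WT 4 is a narrow region of 336 bp near the far end of Ppara.

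The PPARs are part of a list of 19 genes for the RXRs and the receptors that pair with them, of which 17 were tested. None passed in either direction (0 lower, 0 higher). Of the differences, 12 were below 0 and 5 above, with a median of -0.01, against 0.03 over all tested loci. After centring, all 3 edKO hearts were below all 3 WT hearts at 0 of the 17 tested genes, against 5.78% of all tested loci. The opposite separation held for 2 of them, against 7.12% of all tested loci. Ppard had the lowest unadjusted p of the list. It was followed by Nr1h2, which encodes the oxysterol receptor LXR beta, with 2331, 1716 and 2082 bp in edKO hearts 1, 3 and 6, against 1921, 2000 and 1675 bp in WT hearts 1, 3 and 4 (log2 difference 0.20, SE 0.10, limma adjusted p = 0.801). Nr4a1, an orphan receptor induced by many stimuli, came next with 15410, 11248 and 15455 bp in edKO hearts and 13460, 14544 and 12323 bp in WT hearts (log2 difference 0.14, SE 0.09, limma adjusted p = 0.853). By mean share of the window covered, flanks included, Ppara ranked 5 of 19 in the list, Ppard 12 and Pparg 16. The thyroid hormone receptor gene Thra was first at 55.9%.

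**Figure D4:**
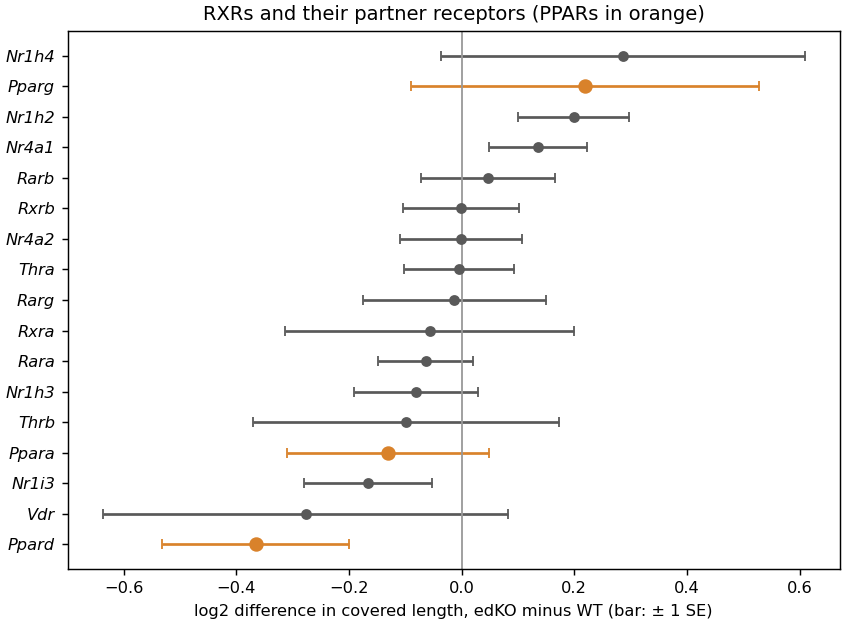
Difference in covered length of the locus, edKO minus WT on the log2(bp + 200) scale, for the 17 tested RXR and partner receptor genes, with bars of 1 SE either side and the PPARs in orange. Ppard is the lowest at -0.37 and Pparg is among the highest at 0.22 (-0.10 without edKO 1), and no gene of the list passed the adjusted threshold.

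Coactivators and corepressors carry the signal of a bound PPAR to chromatin. Of 16 such genes, 16 were tested and 0 passed in either direction, with a median of -0.01. Nrip1, a corepressor of nuclear receptors, had 5659, 4036 and 5360 bp in edKO hearts 1, 3 and 6, against 7711, 7635 and 6583 bp in WT hearts 1, 3 and 4 (log2 difference -0.45, SE 0.09, limma adjusted p = 0.197). Ppargc1b, a coactivator of mitochondrial genes, had 30738, 22327 and 33347 bp in edKO hearts, against 37747, 36875 and 36268 bp in WT hearts (log2 difference -0.29, SE 0.10, limma adjusted p = 0.582). In both genes, which were picked for a small p, each edKO heart was below each WT heart in bp. After centring, such a separation held for 3 of the 16 tested genes, against 5.78% of all tested loci. The opposite separation held for 0 of them, against 7.12% of all tested loci. Lpin1, a phosphatidate phosphatase that also acts as a coactivator, had 11364, 5003 and 13362 bp in edKO hearts, against 14256, 14027 and 13152 bp in WT hearts (log2 difference -0.50, SE 0.24, limma adjusted p = 0.799), with overlapping groups.

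Genes that supply fatty acid ligands form the next list, of which 16 of 18 were tested and 0 passed in either direction, with a median of -0.17. Some of its genes, Fabp3 among them, are also on the list of PPAR targets, so these lists are not separate sets. Lipe, which encodes hormone-sensitive lipase, had 7135, 6212 and 6675 bp in edKO hearts 1, 3 and 6, against 9983, 10452 and 10549 bp in WT hearts 1, 3 and 4 (log2 difference -0.53, SE 0.11, limma adjusted p = 0.219). Fasn, the fatty acid synthase gene, had 5245, 3557 and 5615 bp in edKO hearts, against 6406, 6276 and 6570 bp in WT hearts (log2 difference -0.34, SE 0.12, limma adjusted p = 0.623). Fabp3, the fatty acid binding protein of heart muscle, had 14093, 11603 and 15109 bp in edKO hearts, against 16954, 17597 and 18304 bp in WT hearts (log2 difference -0.29, SE 0.11, limma adjusted p = 0.656). At these 3 genes, picked for a small p, each edKO heart was below each WT heart in bp, and none passed the adjusted threshold. After centring, such a separation held for 3 of the 16 tested genes of the list, against 5.78% of all tested loci. The opposite separation held for 0 of them, against 7.12% of all tested loci.

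Among known PPAR targets, 38 of 42 were tested, and 5 fell in edKO hearts while 0 passed in the other direction, against 0.105% lower and 0% higher over all tested loci. Without WT 3 no locus passed, these 5 included. The list was drawn up with earlier results of these hearts known, so its count is not independent evidence. The 5 were Acot1 and Acot2, thioesterases for long acyl-CoA, Hadha, a subunit of the mitochondrial trifunctional protein, Decr1, a reductase for unsaturated fatty acids, and Acsl1, which activates long-chain fatty acids. Their log2 differences ran from -2.26 for Acot1 to -1.05 for Acsl1. The median of the tested targets was -0.30, against 0.03 over all tested loci, and 32 were below 0 and 6 above.

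For each PPAR gene, the loci on other chromosomes whose centred covered length followed it most closely over the 6 hearts were looked up by Pearson's r, as a description of these hearts. The closest to Ppara were Rasl12, Gm52009 and Srsf3 (r = 0.997, 0.990 and 0.988, highest of 13737 loci). The closest to Ppard were Ddx41, Psmd9 and Osbpl6 (r = 0.988, 0.987 and 0.987, highest of 13607 loci). The closest to Pparg were Nup210l, Gm6377 and H3f3b (r = 0.995, 0.993 and 0.992, highest of 13623 loci). An r over 0.95 was reached by 60, 42 and 36 loci for Ppara, Ppard and Pparg. All points share the same 6 lists, and the loci were picked for their r.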

How the data were processed

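H3K27ac ChIP-seq of 6 hearts was used, 3 edKO and 3 WT. The 6 input samples come without peak lists and did not enter. Per the labels, the reads are single-end from a run described as paired, with an average over the series only, so the depth of each heart is unknown. The submitters' processing notes name the tools cutadapt, BWA, SAMtools and MACS2 (no versions) and mm10 and GRCm38 as builds. For peak calling, the sources used here give neither the settings nor the use of inputs as controls.

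The authors deposited 1 peak list per heart, called without pooling. The deposited fold enrichment is a ratio to background, and each deposited entry also has a −log10 p-value and a −log10 q-value. The deposited starts, ends and summits are mm10 coordinates. The lowest −log10 q-value ran from 1.30 to 1.33 over the lists. Entries that share a region were merged.

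Base pairs covered by regions were summed per heart for each gene body with 10 kb on each side, for 1 kb on each side of both gene ends, and for the inner gene body. Tests used limma 3.58.1 (R 4.3.3, robust empirical Bayes with a mean trend) on log2(bp + 200) centred per heart, with loci under 500 bp on average left out and Benjamini-Hochberg adjustment over all loci. Single values were compared with exact permutation tests in scipy 1.17.1. The limma step was also tested on simulated data. Python 3.11.15, numpy 2.4.6, pandas 2.3.3 and matplotlib 3.10.9 were used. Sequences and gene positions came from RefSeq tables of GRCm38.p6.

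The members and lists were chosen with earlier results of these data known. Genes named are the 3 PPARs, genes whose windows overlap theirs and the 3 loci most like each PPAR. List members past the threshold and the 3 of each list with the smallest unadjusted p are also named. Thra, Lep and Fabp4 were named after their values were seen. Alternatives changed the list length, scaling, pseudocount, filter, window and hearts.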

Additional observations from a re-analysis of the deposited data

How the results depend on the processing

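Of 150 alternative limma values of covered length at the 3 PPAR genes, 128 kept their direction, 22 reversed and 0 passed the threshold. Of 81 alternative region counts and percentiles, 73 kept their direction and 8 reversed or came to 0, in a design whose exact p cannot pass. The gene-end differences, near 0 to begin with, turned most often. Ppara became 0.0186 with stricter lists, 0.0106 with lists of equal length, 0.0196 with ends within 500 bp, 0.0225 within 2 kb and 0.0148 with gene starts alone, a setting chosen after seeing the data. Pparg became -0.0029 with stricter lists, -0.0108 with lists of equal length, -0.0215 without centring, -0.0109 with quantile normalization, -0.0004 with a pseudocount of 1000 bp and -0.0133 with ends within 500 bp. The Pparg locus was at -0.22 with 20 kb flanks, its region count at 0.667 with lists of equal length, and the Ppara best percentile at 0.15 by −log10 q. The cause was not tested.

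Leaving out each heart in turn gave locus differences of -0.23 to 0.0243 for Ppara and -0.10 to 0.47 for Pparg, gene-end differences of -0.11 to 0.054 for Ppara, -0.0689 to 0.13 for Ppard and -0.0511 to 0.0305 for Pparg, and inner differences of -0.54 to -0.0138 for Ppara, -0.73 to -0.37 for Ppard and -0.13 to 0.69 for Pparg. Best percentiles ranged from -1.38 to 0.399 points for Ppara, gaps from gene end to inner region from -3.54 to 12.3 points for Ppard and from -9.08 to 13.0 points for Pparg, and region counts from -1.67 to 0.0 for Pparg.

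Over all loci, the number lower in edKO hearts was 15 for loci, 0 for gene ends and 5 for inner parts. With one heart left out these ran from 0 to 9, 0 to 1 and 0 to 6, and the numbers higher from 0 to 1 for loci and 0 to 1 for inner parts. Loci lower numbered 9 with stricter lists, 6 with lists of equal length and 6 with each region given to its nearest gene alone, where 2 were higher. Gene ends lower numbered 12 within 2 kb and 2 with gene starts alone. Inner parts lower numbered 1 with stricter lists, 0 without centring, 1 with a pseudocount of 50 bp, 14 with 1000 bp, 8 with ends within 500 bp and 9 within 2 kb.

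The replicate block uses heart numbers 1 and 3, which both genotypes carry. WT 4 and edKO 6 have no partner of the same number, so under the block they do not inform the difference between genotypes. Deviations of same-numbered hearts correlated at 0.179 and 0.0316, and those of differently numbered hearts at -0.244 to 0.143. With so few hearts, these values cannot tell whether same-numbered hearts share more than a number. The block left few residual degrees of freedom and gave 90 loci lower, 163 gene ends lower and 11 higher, and 137 inner parts lower and 3 higher. Ppard was at -0.50 (limma adjusted p = 0.329) for its locus under the block, and the Ppara gene ends were at 0.0701.

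Whether a region was called depends on depth, which is unknown per heart, so narrow regions called in 1 heart are the least certain. Covered length cannot show a change of height within a called region.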
